A study of Mus musculus with 95 samples.

Results

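Potassium channel genes were described here across the brain libraries of 2 mouse lines. The members were every protein-coding gene of the deposited count table whose symbol starts with Kcn, with Kcnj13 left out. This gave 93 genes, among 22046 protein-coding genes and 54532 genes in all. They comprised 14 inward rectifiers, 14 leak channels of the two-pore-domain (K2P) family, 6 genes of large-conductance (BK) and 4 of small-conductance (SK) calcium-activated channels, 2 sodium-activated channels and, for the rest, the subunits of voltage-gated channels with their partners.

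The series measured total RNA of brain tissue from untreated C57BL/6 mice by sequencing, in 95 libraries of 16 groups. Knockout mice lacked Fkbp5, the gene of the stress-related co-chaperone FKBP51, in cells that carry a Cre recombinase, and their controls were the wild types of the same line. In the FKBP51-Nex-Cre line (the Nex line) Cre is driven from the Neurod6 locus, which acts in forebrain glutamatergic neurons. In the FKBP51-Dlx-Cre line (the Dlx line) Cre is driven by Dlx5/6 regulatory sequence, which acts in forebrain GABAergic neurons. From each line, dorsal hippocampus and bed nucleus of the stria terminalis were taken from knockout males, wild-type males, knockout females and wild-type females. Each group held 6 libraries, except the Nex hippocampus of knockout males, which held 5. The deleted exons, the Cre status of the wild types and the ages are not given in the sources used here. The series' design names 5 or 6 mice for each condition, which matches the number of libraries, and library numbers recur in both regions without a statement that they mark the same mouse.

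Potassium channels let potassium leave the cell, which brings a neuron back towards its resting potential and limits how often it fires. Voltage-gated members open on depolarisation, calcium-activated and sodium-activated members open when those ions enter during firing, inward rectifiers and leak channels set the resting potential, and the G protein-gated inward rectifiers carry the slow inhibition that neurotransmitter receptors evoke. Most channels assemble from several subunits, so the mix of subunit genes a region transcribes bears on which channels its cells can build.

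The libraries held 19.6 to 31.2 M counts, with a median of 22.4 M. Levels are CPM, counts scaled to library size by TMM, and levels of different genes are set side by side only in TPM, which also divides by gene length. Fkbp5 was at 19.6 to 37.6 CPM in the Nex hippocampus of knockouts, against 45.1 to 65.5 CPM in wild types, and at 4.72 to 12.3 CPM in the Dlx bed nucleus of knockouts, against 23.2 to 36 CPM in wild types. In the Nex bed nucleus and the Dlx hippocampus the Fkbp5 ranges of the genotypes overlapped. Summed markers of forebrain glutamatergic neurons (5 genes) had a median of 1940 CPM in hippocampus and 26.2 CPM in bed nucleus, and those of GABAergic neurons (7 genes) had 624 CPM in hippocampus and 2220 CPM in bed nucleus. In bulk tissue, fewer cells of a type and less RNA per cell cannot be told apart.

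3 libraries stood apart from their groups, and the members show it. The measure was the mean absolute log2 distance of a library from its group median, with a limit of 0.35 chosen after the data were seen. By their titles they were Dl_D_F_K_8 (Dlx hippocampus, knockout female), Dl_B_M_K_639 (Dlx bed nucleus, knockout male) and Dl_D_M_W_641 (Dlx hippocampus, wild-type male). Their distances were 1.1, 0.398 and 0.381, and the next library was at 0.334, so only Dl_D_F_K_8 was far from all libraries kept. Dl_D_F_K_8 had counts in 17863 genes, against 24247 to 24966 in the other libraries of its group. Kcna1, a low-threshold channel of axons, was at 2.69, 13.5 and 19.5 CPM in these libraries, against 58.5 to 111 CPM in the other libraries of their groups. Kcna3, a channel of the same family, was at 0, 0.722 and 0.875 CPM in them, against 2.38 to 12 CPM in the others. These genes were picked out here after their values were seen. Each comparison was also run without the 3 libraries.

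The regions differed in many potassium channel genes. The comparison was made in 4 sets of wild types, 1 for each line and sex, with 6 hippocampal and 6 bed nucleus libraries in each. Between 79 and 83 of the 93 members passed the filter on low counts in any comparison, and 80 passed it in all 4 wild-type region sets. Genes were called at an adjusted p under 0.05 from the quasi-likelihood test of edgeR, adjusted over all genes tested after Benjamini and Hochberg. In Nex males 23 members were higher and 18 lower in hippocampus among 81 tested, which is 50.6% of the members against 35.7% of all genes tested (16.7% higher and 19% lower). In Nex females 32 were higher and 24 lower among 80, which is 70% against 52.8% (26.4% in each direction). In Dlx males 33 were higher and 24 lower among 80, 71.2% against 46.7% (22.6% higher and 24.2% lower). In Dlx females 28 were higher and 20 lower among 80, 60% against 30% (14.9% higher and 15.2% lower). The median size of change among the members was 0.47, 0.54, 0.70 and 0.78 on the log2 scale in Nex males, Nex females, Dlx males and Dlx females, against 0.29, 0.30, 0.33 and 0.30 over all genes tested.

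In all 4 wild-type sets, 16 members were higher in hippocampus, which is 20% of the 80 against 10.9% of all genes, and 15 were lower, which is 18.8% against 11.2%. Together these 31 are 38.8% of the members, against 22.1% of all genes. Another 35 members were called in 1 to 3 sets, 14 in none, and 0 were called in opposite directions in different sets. In knockouts the counts were of the same order, with 23 higher and 16 lower in Nex males (background 36.1%), 34 and 22 in Nex females (51%), 32 and 24 in Dlx males (54.3%) and 28 and 20 in Dlx females (36.3%). Over the 4 wild-type and 4 knockout sets together, 12 members were higher in all 8 (15% against 8.54% of all genes) and 13 were lower in all 8 (16.2% against 8.52%). Over the 47 hippocampal and 48 bed nucleus libraries of all groups, the regions did not overlap for 6 of 83 members (7.23% against 3.08% of 20595 genes), which were Kcnj3, Kcnj5, Kcna5, Kcnab2, Kcng2 and Kcnt1. This count depends on the scaling: in TPM it was 5 (6.02% against 2.47%), without Kcnj3 and Kcnj5 and with Kcnk13, with median-of-ratios scaling 7 (8.43% against 3.14%), and in CPM without scaling factors 6 (7.23% against 3.23%), without Kcnj3. Without the 3 libraries that stood apart, all 31 members stayed called in the 4 wild-type sets and Kcnb2 and Kcnj11 joined the higher ones, giving 18 higher and 15 lower.

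**Figure D1:**
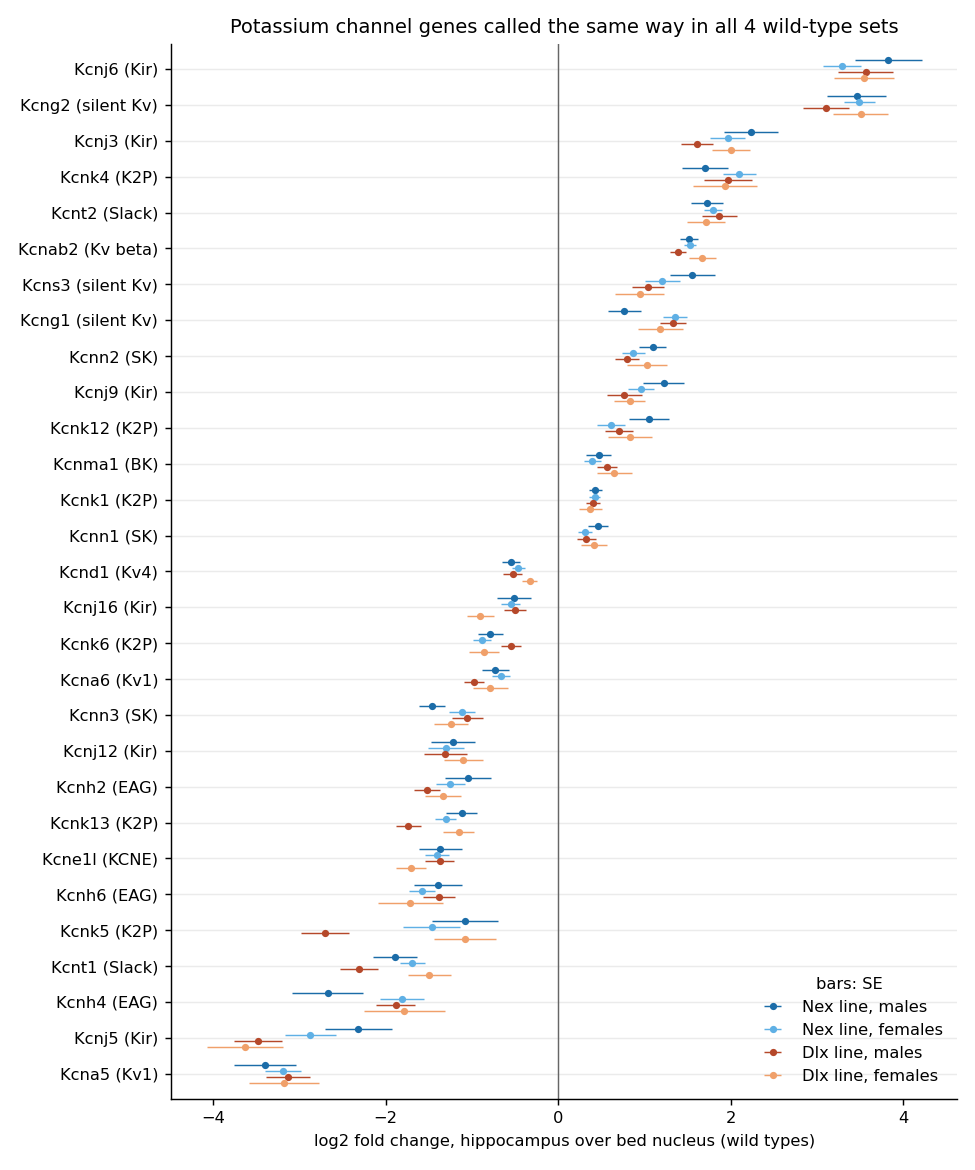
Log2 fold change, dorsal hippocampus over bed nucleus, of 29 potassium channel genes called in the same direction in all 4 wild-type sets, with bars of the standard error and 1 mark for each set of line and sex. 14 genes lie right of 0 and 15 left of it, from Kcnj6 at 3.29 to 3.82 to Kcna5 at -3.40 to -3.13.

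The clearest division was among the G protein-gated inward rectifiers, the GIRK channels, whose 4 subunits are encoded by Kcnj3, Kcnj6, Kcnj9 and Kcnj5. Neuronal GIRK channels are mostly tetramers of the Kcnj3 product with that of Kcnj6 or Kcnj9, while the Kcnj5 product is best known from the heart. Their promoter windows, 250 bases before to 50 after the annotated start, are printed because these 4 related genes divide between the regions. The windows come from RefSeq on GRCm38.p6, in gene orientation, and capitals mark every match to 1 of 6 short motifs searched on both strands. They are Kcnj3 at chr2:55435720-55436019 on the plus strand, Kcnj6 at chr16:94997647-94997946, Kcnj9 at chr1:172329273-172329572 and Kcnj5 at chr9:32344295-32344594, the last 3 on the minus strand. The Kcnj6 window is from 1 of 2 starts in the table.

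Kcnj3: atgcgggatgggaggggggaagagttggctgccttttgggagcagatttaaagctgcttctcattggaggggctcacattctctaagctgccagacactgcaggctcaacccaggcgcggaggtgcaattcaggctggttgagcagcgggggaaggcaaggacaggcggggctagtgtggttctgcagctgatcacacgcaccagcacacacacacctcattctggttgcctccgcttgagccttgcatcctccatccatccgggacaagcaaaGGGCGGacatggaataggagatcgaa
Kcnj6: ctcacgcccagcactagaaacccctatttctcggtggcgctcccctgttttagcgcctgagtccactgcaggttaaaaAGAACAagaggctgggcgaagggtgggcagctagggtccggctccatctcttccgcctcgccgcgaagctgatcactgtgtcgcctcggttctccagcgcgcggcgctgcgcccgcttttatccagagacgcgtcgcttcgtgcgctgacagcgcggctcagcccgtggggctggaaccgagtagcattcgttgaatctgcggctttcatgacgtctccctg
Kcnj9: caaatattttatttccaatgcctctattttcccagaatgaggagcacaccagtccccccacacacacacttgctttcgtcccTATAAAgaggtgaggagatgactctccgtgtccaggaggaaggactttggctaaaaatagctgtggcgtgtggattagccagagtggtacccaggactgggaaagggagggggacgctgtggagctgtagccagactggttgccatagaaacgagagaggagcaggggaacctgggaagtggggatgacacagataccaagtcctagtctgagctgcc
Kcnj5: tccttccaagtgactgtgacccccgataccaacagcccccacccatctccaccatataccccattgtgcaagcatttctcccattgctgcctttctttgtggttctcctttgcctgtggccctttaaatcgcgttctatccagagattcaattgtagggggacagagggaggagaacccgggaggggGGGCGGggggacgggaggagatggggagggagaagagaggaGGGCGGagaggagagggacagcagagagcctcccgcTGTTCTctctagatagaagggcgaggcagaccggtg

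The motifs were TATAAA (the TATA box), GGGCGG (the GC box), TGACGTCA (the cAMP response element), AGAACA (the glucocorticoid receptor half-site), TAATTA (a homeodomain core) and CAGATG (an E-box). None of the 6 is contained in another. The Kcnj3 window held 1 GC box, the Kcnj6 window 1 AGAACA, the Kcnj9 window 1 TATAAA, and the Kcnj5 window 2 GC boxes and 1 TGTTCT, which is AGAACA on the other strand. RefSeq gave a window for 68 of the 93 members. For members the start nearest the deposited gene end was taken, and for all genes the first start listed, so the sets were not chosen alike. Median GC content was 60% in the members' windows and 52.7% in those of all genes. Some members' windows lie far from the deposited start, that of Kcnip4 by 239248 bases. GGGCGG was in 50% of the members' windows and 35.9% of the windows of all 27025 genes in the table, AGAACA in 13.2% and 19%, TATAAA in 2.94% and 14.2%, CAGATG in 19.1% and 17.2%, TAATTA in 0% and 5.31% and TGACGTCA in 0% and 1.88%. GGGCGG was in 54.5% of the windows of the 11 matched members higher in hippocampus in all 4 sets and in 50% of those of the 12 matched lower ones. A match describes letters in this window and is no evidence of binding.

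Kcnj3 spanned 93.0 to 200.6 CPM in the 47 hippocampal libraries, with a median of 126.8 CPM, against 14.1 to 85.5 CPM with a median of 32.8 CPM in the 48 bed nucleus libraries. Every hippocampal library was above every bed nucleus library on this scale, while in TPM its ranges overlapped, at 36.2 to 143 TPM in hippocampus and 10.3 to 64.1 TPM in bed nucleus. Its log2 fold change was 1.61 to 2.24 in the 4 wild-type sets (SE 0.18 to 0.31, largest edgeR adjusted p 4.6e-06), 3.87-fold on average. Of its exonic bases 31.1% lie in the opposite-strand gene Gm26794, and the sources used here do not say whether counting used strand, so reads of the pair cannot be told apart.

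Kcnj6 spanned 5.00 to 72.3 CPM in hippocampus, with a median of 54.7 CPM, against 0.862 to 10.9 CPM with a median of 4.11 CPM in bed nucleus. A single hippocampal library, knockout library 8 of the Dlx females, which stood apart, fell within the bed nucleus range. The log2 fold change was 3.29 to 3.82 (SE 0.22 to 0.39, largest edgeR adjusted p 3.5e-08), or 11.8-fold on average. This was the largest rise among the members called in all 4 sets. Kcnj9 spanned 72.2 to 168.1 CPM in hippocampus (median 117.1 CPM) and 24.8 to 138.7 CPM in bed nucleus (median 62.8 CPM). Here the regions overlapped, with log2 fold changes of 0.77 to 1.22 (SE 0.15 to 0.24, largest edgeR adjusted p 0.0028).

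Kcnj5 went the other way. It spanned 0 to 2.71 CPM in hippocampus, with a median of 0.524 CPM, against 2.93 to 10.7 CPM with a median of 5.70 CPM in bed nucleus. Every hippocampal library was below every bed nucleus library in CPM, while in TPM the ranges overlapped slightly, at 0 to 2.29 TPM in hippocampus and 2.06 to 8.91 TPM in bed nucleus. On the log2 scale it fell, at -3.63 to -2.32 (SE 0.28 to 0.45, largest edgeR adjusted p 4.1e-05), or 8.43-fold lower on average. Per length, median levels in hippocampus were 103 TPM for Kcnj9, 91.3 TPM for Kcnj3, 26.9 TPM for Kcnj6 and 0.420 TPM for Kcnj5, and in bed nucleus 56.8 TPM for Kcnj9, 23.9 TPM for Kcnj3, 4.71 TPM for Kcnj5 and 2.10 TPM for Kcnj6. Kcnj9 was thus the highest GIRK gene by median in both regions, while Kcnj6 and Kcnj5 changed places.

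**Figure D2:**
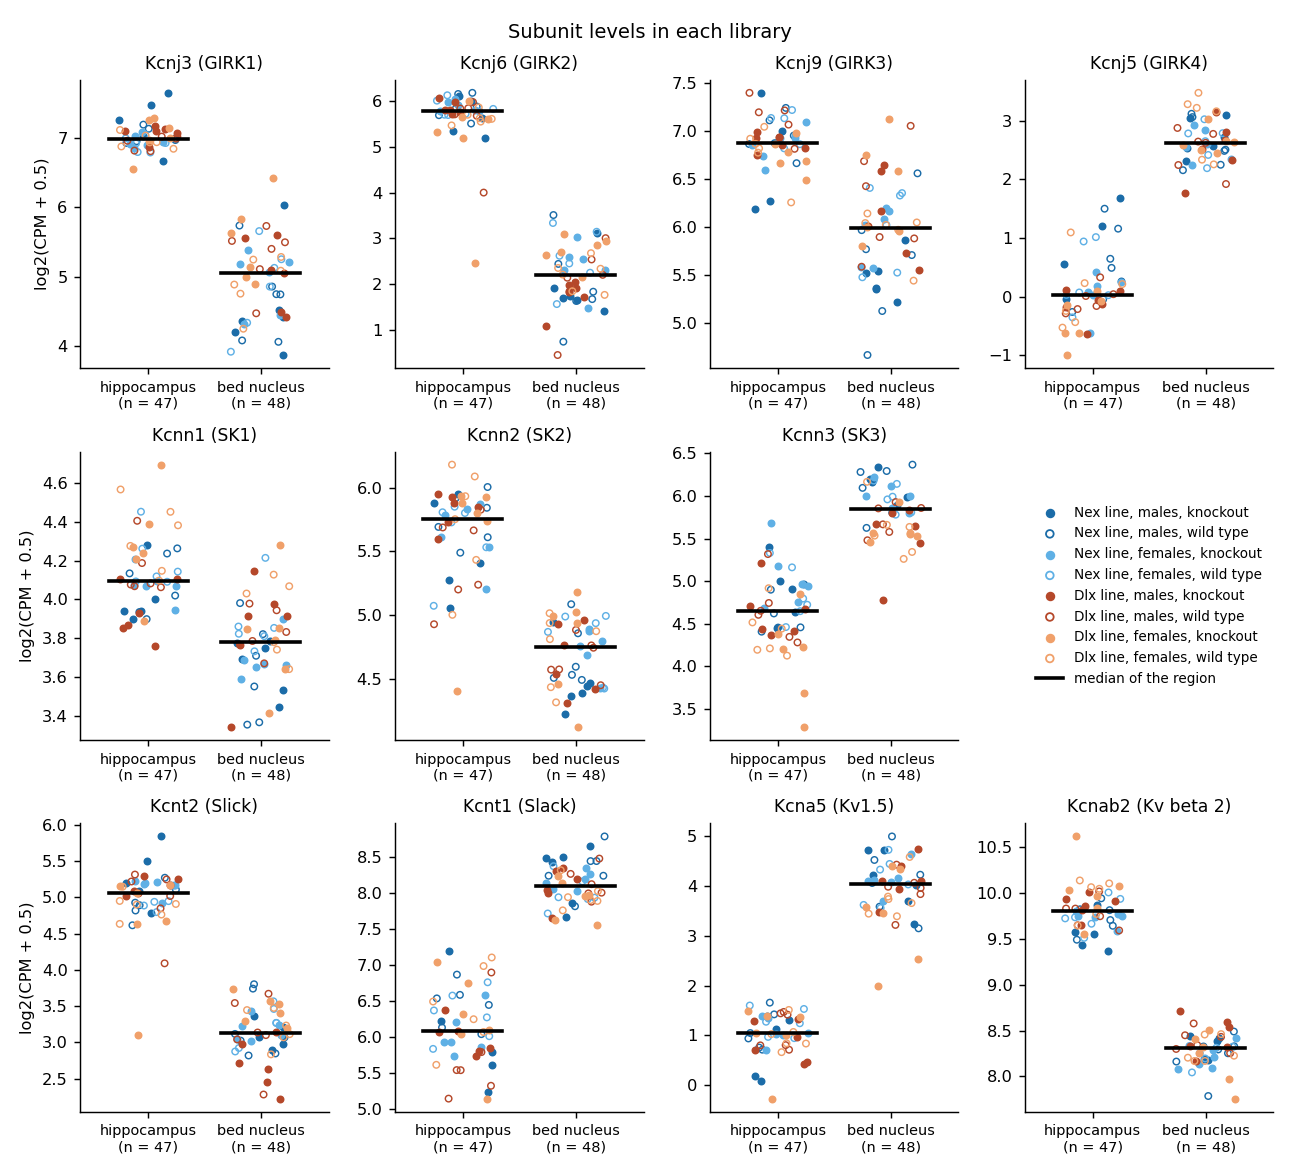
Level of 11 potassium channel genes in each library, as log2(CPM + 0.5), with dorsal hippocampus left of bed nucleus for each gene. Kcnj3, Kcnj5, Kcnt1, Kcna5 and Kcnab2 show no overlap between the 47 hippocampal and 48 bed nucleus libraries on this scale (Kcnj3 and Kcnj5 overlap in TPM), while Kcnj9 and the SK genes overlap.

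Among the other inward rectifiers, Kcnj12, a strong rectifier of the Kir2 group, was lower in hippocampus in all 4 sets. It spanned 2.99 to 15.1 CPM in hippocampus (median 7.68 CPM) and 12.4 to 33.6 CPM in bed nucleus (median 18.3 CPM), which overlap slightly, with log2 fold changes of -1.31 to -1.10 (SE 0.21 to 0.25, largest edgeR adjusted p 0.000473). Kcnj16, the partner of the glial channel subunit Kcnj10, was also lower in all 4 sets, by -0.90 to -0.50 on the log2 scale. Its largest adjusted p by edgeR was 0.0476, in Nex males, where the call ended without any of 13 single libraries. Kcnj4, another Kir2 gene, was called in 0 of the 4 sets and had median levels of 148 TPM in hippocampus and 166 TPM in bed nucleus. Kcnj9 and Kcnj10 neighbour each other on chromosome 1, 11.9 kb apart, with mean log2 changes of 0.94 and -0.47. Summed oligodendrocyte markers (6 genes) had a median of 4350 CPM in hippocampus and 12100 CPM in bed nucleus, and summed astrocyte markers (6 genes) had 4220 CPM in hippocampus and 2980 CPM in bed nucleus. The part of these markers in the change of Kcnj16 was not tested.

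The 2 sodium-activated channels divided between the regions in the same manner as the GIRK genes. Kcnt1, which encodes Slack, spanned 34.9 to 145.7 CPM in hippocampus (median 67.2 CPM), against 187.7 to 439.8 CPM in bed nucleus (median 271.8 CPM). No hippocampal library reached the bed nucleus range, and log2 fold changes were -2.31 to -1.50 (SE 0.14 to 0.26, largest edgeR adjusted p 5.0e-05). Kcnt2, which encodes Slick, spanned 8.08 to 56.8 CPM in hippocampus (median 33.0 CPM), against 4.17 to 13.4 CPM in bed nucleus (median 8.23 CPM). Its ranges overlapped at their ends, and its log2 fold change was 1.72 to 1.87 (SE 0.11 to 0.22, largest edgeR adjusted p 1.7e-06). Per length, Kcnt1 had a median of 26.4 TPM and Kcnt2 of 18.1 TPM in hippocampus, against 112 TPM for Kcnt1 and 4.63 TPM for Kcnt2 in bed nucleus.

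The small-conductance calcium-activated SK channels, which carry the afterhyperpolarisation that follows firing, also divided. Kcnn2 spanned 20.7 to 72.0 CPM in hippocampus (median 53.4 CPM) and 16.9 to 35.7 CPM in bed nucleus (median 26.4 CPM), with log2 fold changes of 0.80 to 1.09 (SE 0.13 to 0.23, largest edgeR adjusted p 0.00121). Kcnn3 spanned 9.29 to 51.0 CPM in hippocampus (median 24.6 CPM) and 26.9 to 82.1 CPM in bed nucleus (median 57.0 CPM), with log2 fold changes of -1.47 to -1.05 (SE 0.15 to 0.20, largest edgeR adjusted p 3.4e-05). Both pairs of ranges overlapped. Kcnn1 changed least, by 0.31 to 0.46 on the log2 scale (SE 0.08 to 0.15, largest edgeR adjusted p 0.039), and its call in Dlx females ended without any of 9 single libraries. Per length, median levels in hippocampus were 27.8 TPM for Kcnn2, 13.9 TPM for Kcnn1 and 8.81 TPM for Kcnn3, and in bed nucleus 21 TPM for Kcnn3, 13.8 TPM for Kcnn2 and 11.2 TPM for Kcnn1. Kcnma1, the pore of the large-conductance BK channel, was higher in hippocampus in all 4 sets, at 78.8 to 309.7 CPM (median 209.3 CPM) against 84.1 to 216.1 CPM (median 136.9 CPM) in bed nucleus, with log2 fold changes of 0.39 to 0.65 (SE 0.10 to 0.21, largest edgeR adjusted p 0.0181).

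In the Kv1 family of low-threshold voltage-gated channels, Kcna5 had the largest fall of the family. It spanned 0.330 to 2.66 CPM in hippocampus (median 1.57 CPM), against 3.5 to 31.4 CPM in bed nucleus (median 16 CPM). No hippocampal library reached the lowest bed nucleus library, with log2 fold changes of -3.40 to -3.13 (SE 0.21 to 0.40, largest edgeR adjusted p 1.5e-06), or 9.34-fold lower on average. Kcna6 was lower by -0.98 to -0.66 on the log2 scale (SE 0.11 to 0.21, largest edgeR adjusted p 0.00468). Kcna5, Kcna1 and Kcna6 lie in a row on chromosome 6, 105 kb and 61.9 kb apart, with mean log2 changes of -3.22, 0.19 and -0.79. Of the exonic bases of Kcna6, 39.6% lie in the opposite-strand gene Gm26673, so its counts are uncertain.

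Kcnab2, the cytoplasmic beta subunit that binds Kv1 channels, rose in hippocampus. It spanned 660.9 to 1574 CPM there (median 896.3 CPM), against 216.0 to 420.9 CPM in bed nucleus (median 316.2 CPM), with no overlap. Over the 4 sets the log2 fold change was 1.39 to 1.67 (SE 0.07 to 0.16, largest edgeR adjusted p 1.9e-08), or 2.88-fold on average. Per length it was the highest potassium channel gene of both regions, with medians of 593 TPM in hippocampus and 220 TPM in bed nucleus.

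In the Kv3 family, which lets neurons fire fast, Kcnc2 was called in 0 of the 4 sets, Kcnc1 was lower in 1 and Kcnc4 higher in 3. Of the Kv4 genes, which carry the A-type current of dendrites, Kcnd1 was lower in all 4 sets, by -0.55 to -0.33 on the log2 scale (SE 0.08 to 0.11, largest edgeR adjusted p 0.0054). The other Kv4 genes went the other way where called, with Kcnd3 higher in 3 sets and Kcnd2 in 1. Per length, Kcnd1 was the lowest of these genes, with medians of 10.6 TPM in hippocampus and 15 TPM in bed nucleus. Kcnd2 had 129.6 and 110 TPM, and Kcnd3 had 40.8 and 34.6 TPM. Of the genes of the KChIPs, calcium-binding partners of Kv4, Kcnip3 was higher in 3 sets, Kcnip2 in 2 and Kcnip4 in 1, and Kcnip1 was lower in 3. Kcnb2, a Kv2 gene of the delayed rectifier, was higher in 3 sets.

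The silent subunits form no channel alone and alter Kv2 channels when they join them. Kcng2 spanned 21.6 to 65.2 CPM in hippocampus (median 41.6 CPM), against 0.893 to 9.18 CPM in bed nucleus (median 3.56 CPM), with no overlap. In the 4 sets the log2 fold change was 3.10 to 3.5 (SE 0.18 to 0.34, largest edgeR adjusted p 2.0e-08), or 10.5-fold on average. Kcng1 was higher by 0.76 to 1.35 on the log2 scale (SE 0.14 to 0.26, largest edgeR adjusted p 0.00262) and Kcns3 by 0.94 to 1.55 (SE 0.18 to 0.28, largest edgeR adjusted p 0.0126). A further 3 silent subunit genes, Kcnf1, Kcns2 and Kcnv1, were higher in 3 sets.

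The EAG family moved downwards in hippocampus where it was called in all 4 sets. Kcnh2, which encodes the Erg1 channel known from the repolarising current of the heart, spanned 30.1 to 73.0 CPM in hippocampus (median 42.8 CPM), against 53.7 to 182.6 CPM in bed nucleus (median 114.2 CPM). Log2 fold changes were -1.52 to -1.05 (SE 0.15 to 0.27, largest edgeR adjusted p 0.00353). Kcnh6, the Erg2 gene, was lower by -1.71 to -1.38 on the log2 scale (SE 0.15 to 0.38, largest edgeR adjusted p 0.00115). Kcnh4, of the ELK group, spanned 2.03 to 10.9 CPM in hippocampus (median 6.44 CPM) and 2.53 to 73.0 CPM in bed nucleus (median 29.5 CPM), so that the hippocampal range lay almost wholly within that of bed nucleus. Log2 fold changes were -2.67 to -1.78 (SE 0.22 to 0.47, largest edgeR adjusted p 0.00486). Kcnh1, Kcnh3 and Kcnh7 of the same family were each higher in 2 sets. In the Kv7 family, Kcnq3, whose product takes part in the M-current, was higher in 3 sets, while Kcnq5 was lower in 2.

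Among the two-pore-domain leak channels, Kcnk4, which encodes the mechanosensitive TRAAK, had the largest rise. It spanned 4.71 to 20.8 CPM in hippocampus (median 12.5 CPM) and 1.63 to 15.6 CPM in bed nucleus (median 2.70 CPM), with log2 fold changes of 1.70 to 2.10 (SE 0.19 to 0.37, largest edgeR adjusted p 0.000272). It shares 13.1% of its exonic bases with Catsperz on the same strand. Kcnk12, the THIK2 gene, rose by 0.61 to 1.05 on the log2 scale (SE 0.17 to 0.26, largest edgeR adjusted p 0.0156). Its closest relative Kcnk13, the THIK1 gene known from microglia, fell. Kcnk13 spanned 5.32 to 17.8 CPM in hippocampus (median 9.70 CPM), against 17.7 to 36.9 CPM in bed nucleus (median 25.5 CPM), and touched the bed nucleus range in CPM with its highest library only. Log2 fold changes of Kcnk13 were -1.74 to -1.12 (SE 0.13 to 0.18, largest edgeR adjusted p 2.6e-05). Summed microglial markers (5 genes) were at 203 to 661 CPM in hippocampus (median 255 CPM) and 249 to 481 CPM in bed nucleus (median 378 CPM), and their part in the change of Kcnk13 was not tested. Kcnk5, the TASK2 gene, was lower by -2.70 to -1.08 on the log2 scale (SE 0.27 to 0.38, largest edgeR adjusted p 0.0295) at medians of 0.465 CPM in hippocampus and 1.44 CPM in bed nucleus, and its calls in Dlx females and in Nex males each ended without any of 4 single libraries. Among the small KCNE subunits, Kcne1l was lower by -1.71 to -1.37 on the log2 scale (SE 0.14 to 0.25, largest edgeR adjusted p 0.000105).

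Proteins that bind or regulate the channels were followed by a list of 19 partner genes, 18 of them tested in all 4 wild-type sets. 5 were higher in hippocampus in all 4 (Abcc8, Dpp6, Lgi1, Lrrc26 and Rgs7) and 4 were lower (Cntn2, Cntnap2, Dpp10 and Lrrc38), against the 10.9% and 11.2% of all genes given above. Abcc8, the sulfonylurea receptor of the ATP-sensitive channel, had a median of 81.5 CPM in hippocampus and 27.3 CPM in bed nucleus. Lgi1, a secreted protein of Kv1 complexes, had 157 CPM in hippocampus and 59.8 CPM in bed nucleus. Dpp10, an auxiliary subunit of Kv4, had 35.3 CPM in hippocampus and 109.8 CPM in bed nucleus.

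Of the 10 members with the highest levels per length in each region, 8 were the same. In hippocampus Kcnab2 was followed by Kcnip2 (239.5 TPM), with Kcnj4 (148 TPM) and Kcnk1 (143 TPM) also among the 10, and in bed nucleus by Kcnj10 (206.2 TPM), Kcnip2 (190.3 TPM) and Kcnj4 (166 TPM). Kcnj9 was among the 10 highest of hippocampus only, and Kcnt1 and Kcnc2 among those of bed nucleus only. The ranges of most neighbours in these orders overlap, so their order is a description of the medians.

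**Figure D3:**
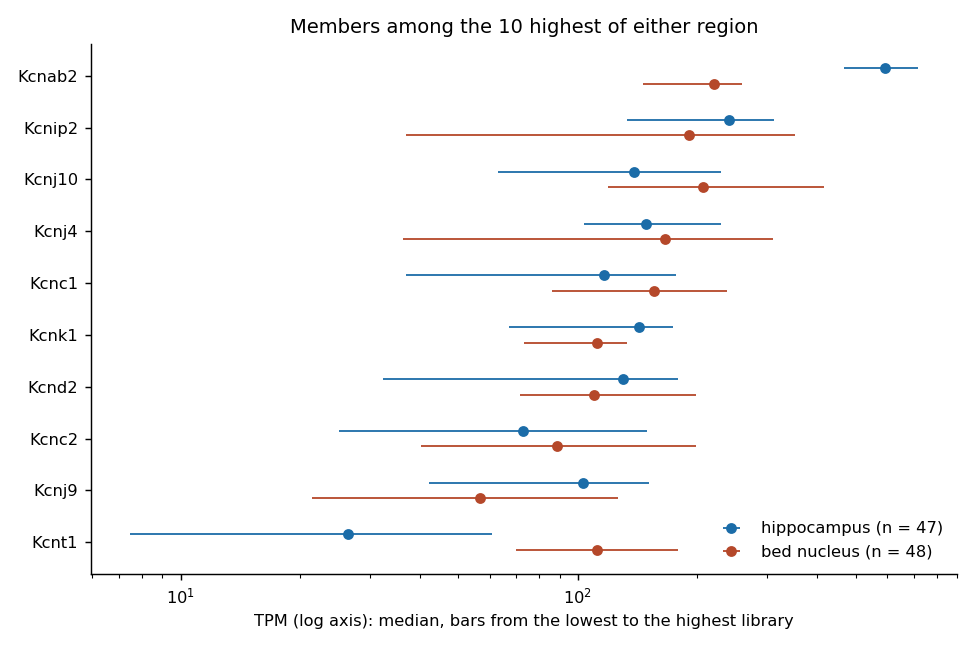
Median level per length in TPM on a log axis, with the lowest and highest library, of 10 potassium channel genes that are among the 10 highest of either region, dorsal hippocampus first and bed nucleus after it. Kcnab2 is highest in both, at 593 and 220 TPM, and Kcnt1 differs most, at 26.4 and 112 TPM.

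Within the bed nucleus some members varied widely between libraries, and markers of striatal projection neurons varied too. The summed level of these 6 markers was 45.7 to 142 CPM in hippocampus and 67.3 to 3820 CPM over the 48 bed nucleus libraries, with 0 of the 6 at 0 throughout. In the 12 bed nucleus libraries with the lowest sums Kcnh4 was at 2.53 to 18.3 CPM, and in the 12 with the highest at 38.9 to 73.0 CPM. Kcnab1, another Kv beta gene, was at 63.5 to 93.9 CPM in the lowest 12 and 189 to 318 CPM in the highest 12. Kcnip2 was at 32.8 to 115 CPM in the lowest 12 and 230 to 317 CPM in the highest 12. Kcng3 was at 0.138 to 1.20 CPM in the lowest 12 and 1.09 to 9.93 CPM in the highest 12. Kcng4, a silent subunit gene, went the other way, at 3.84 to 34.7 CPM (median 25.6 CPM) in the lowest 12 and 1.31 to 17.1 CPM (median 3.24 CPM) in the highest 12. These 5 genes are set beside the markers after their values were seen. All 48 bed nucleus libraries were ranked together, and the groups are spread unevenly over the lowest 12 and the highest 12. Most of the lowest 12 are Dlx females, most of the highest 12 are Nex libraries, and knockout Dlx males are in neither. Marker sums and group thus cannot be told apart here. The part of the marker sums in the region and group comparisons of these genes was not tested.

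**Figure D4:**
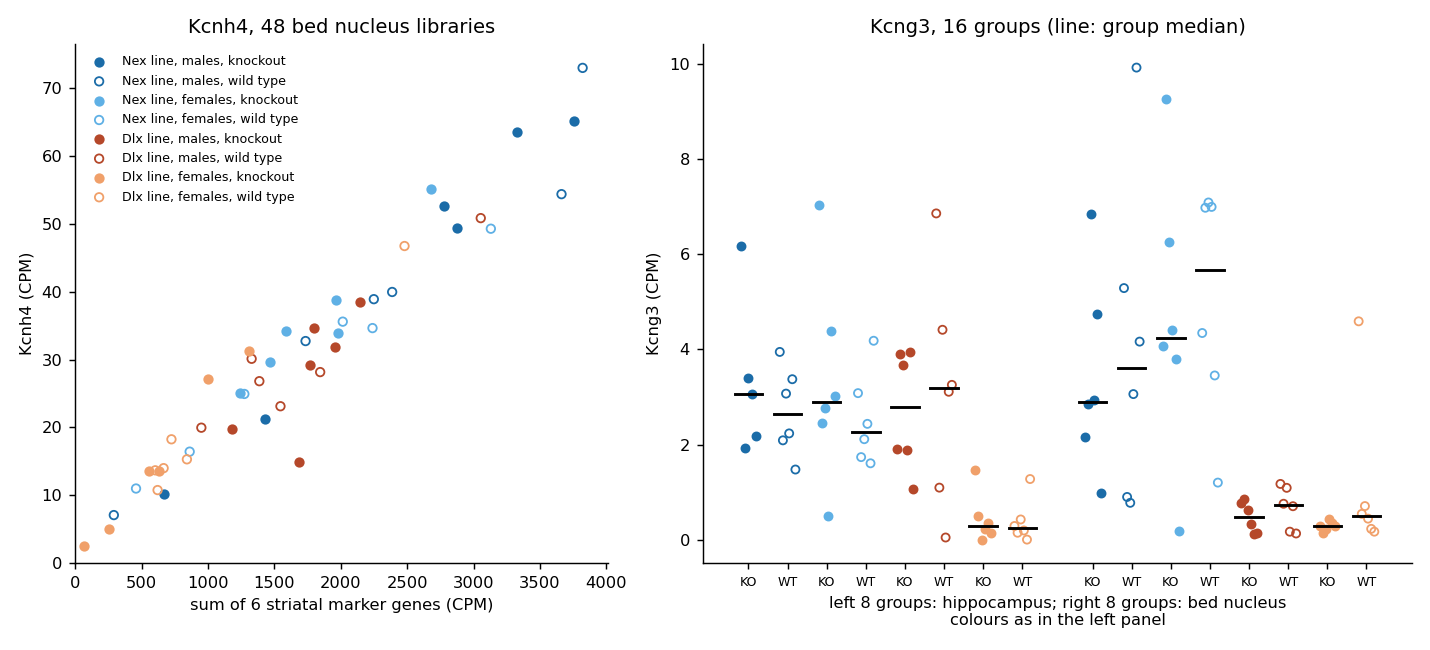
Left, Kcnh4 level in CPM against the summed level in CPM of 6 markers of striatal projection neurons in each of the 48 bed nucleus libraries; right, Kcng3 level in CPM in each library of the 16 groups, with a line at the median. Kcnh4 lies at 2.53 to 18.3 CPM in the 12 libraries with the lowest marker sums and 38.9 to 73.0 CPM in the 12 with the highest, and Kcng3 medians lie under 1 CPM in the Dlx groups other than hippocampal males.

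Deletion of Fkbp5 was compared with wild type in each line, region and sex, which asks whether the loss in glutamatergic or GABAergic neurons changed the channel genes. In the Nex bed nucleus Fkbp5 itself averaged 29.85 CPM in knockout and 31.53 CPM in wild-type males, and 32.36 and 30.33 CPM in females. In the Dlx hippocampus it averaged 58.09 and 61.79 CPM in males, and 61.95 and 55.64 CPM in females. A loss was thus not apparent in the tissue as a whole in these comparisons. No member was called in any of the 8 comparisons by edgeR, and DESeq2 called 0 as well. Few genes of any kind were called, at 0.0106% in the Nex hippocampus, 0% in the Nex bed nucleus and the Dlx hippocampus, and 0.00539% in the Dlx bed nucleus, in males and in females alike. With an unadjusted p under 0.05 there were, in the Nex hippocampus, 8 of 80 members in males (10% against 9.93% of all genes) and 1 of 80 in females (1.25% against 2.56%). The Nex bed nucleus had 1 of 82 in males (1.22% against 2.06%) and 0 of 82 in females (0% against 1.39%). The Dlx hippocampus had 7 of 79 in males (8.86% against 3.2%) and 5 of 79 in females (6.33% against 10.6%). The Dlx bed nucleus had 2 of 82 in males (2.44% against 4.34%) and 5 of 82 in females (6.1% against 5.66%). The median size of change among members was 0.08 to 0.19 on the log2 scale over the 8 comparisons, against 0.07 to 0.18 over all genes.

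**Figure D5:**
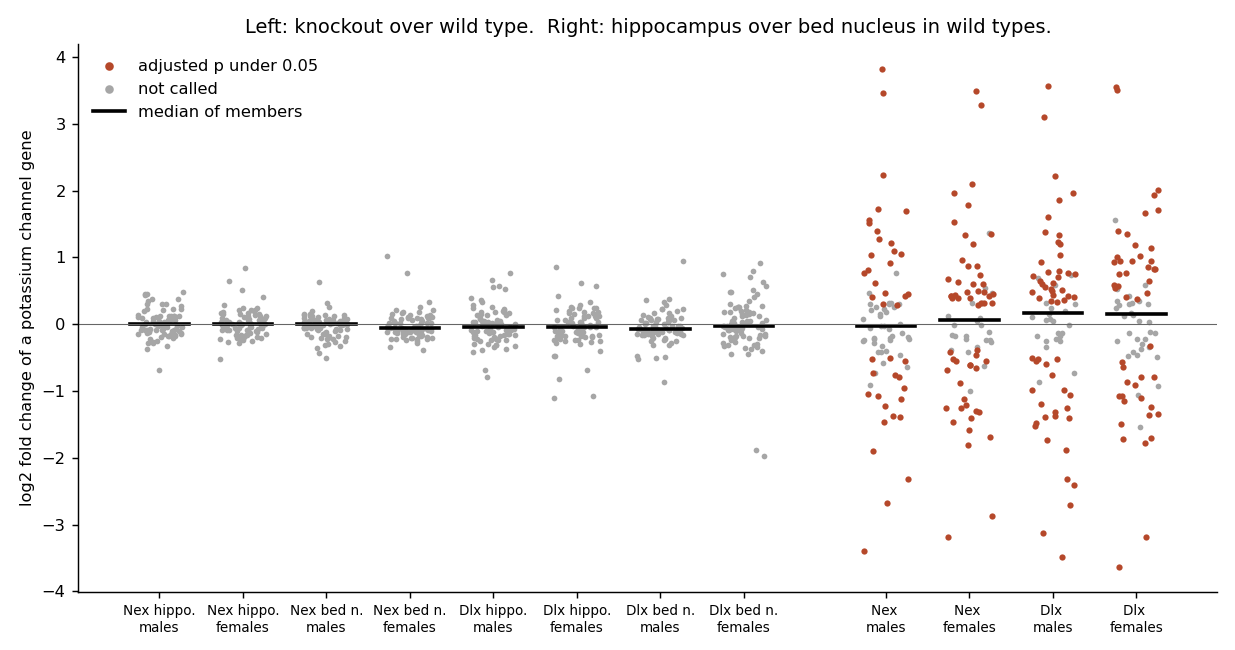
Log2 fold change of each potassium channel gene tested, knockout over wild type in the 8 comparisons at the left and dorsal hippocampus over bed nucleus in the 4 wild-type sets at the right, with called genes coloured and a bar at the median. 0 genes are called at the left, and 41, 56, 57 and 48 genes are called in Nex males, Nex females, Dlx males and Dlx females at the right.

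The members with the smallest p-values show what the spread allows. In the Nex hippocampus of males, Kcnip4, a KChIP, was at 77.0, 51.2, 61.1, 65.0 and 47.9 CPM in the 5 knockout libraries, against 44.9 to 51.9 CPM with a median of 49.5 CPM in wild types. 3 of the 5 knockout libraries were above all wild types. The log2 fold change was 0.30 (SE 0.11, edgeR adjusted p 0.375), and the exact two-sided permutation test gave p = 0.0390, where 0.00433 is the smallest possible. Kcnt2 was at 56.8, 36.3, 44.9, 33.4 and 27.2 CPM in the knockouts, against 24 to 38.1 CPM with a median of 29.6 CPM in wild types. 2 of the knockout libraries were above all wild types, with a log2 fold change of 0.38 (SE 0.14, edgeR adjusted p 0.369). Kcnv1, a silent subunit, was at 62.0, 41.2, 54.8, 37.2 and 23.6 CPM in the knockouts, against 25.3 to 41.2 CPM with a median of 31.8 CPM in wild types (log2 fold change 0.43, SE 0.16, edgeR adjusted p 0.395). The knockout library with the highest value was the same for all 3 genes. Summed CA1 markers (5 genes, 0 called, 0 at 0 throughout) were at 106.6 to 947.8 CPM in these knockouts and 344.1 to 1352 CPM in wild types, and their part was not tested.

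In the Nex hippocampus of females, Kcnip3, a KChIP that also acts in the nucleus, was at 75.6 to 81.5 CPM in knockouts (median 78.5 CPM), against 85.9 to 98.1 CPM in wild types (median 91.0 CPM). All 6 knockout libraries were below all 6 wild-type libraries. It was the only member of the 80 whose groups did not overlap there, where 0.25% of all genes tested did not. The log2 fold change was -0.22 (SE 0.07, edgeR adjusted p 0.9997), and the exact two-sided permutation test gave p = 0.00217, the smallest possible. Any groups of this size without overlap give that p, so it restates the separation, and it is not adjusted for the members tested. The next smallest p-values belonged to Kcnh5, with a log2 fold change of 0.52, and Kcng2, with 0.25. In the Nex bed nucleus the named members were Kcns1 and Kcnj14 in males, with log2 fold changes of -0.43 and 0.31, and Kcnn1, Kcnn4 and Kcnk1 in females, with -0.21, 1.02 and -0.11. Kcnn4 averaged 0.319 CPM in knockouts and 0.154 CPM in wild types, which are levels of few reads.

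In the Dlx hippocampus of males, Kcnj12 averaged 4.81 ± 2.00 CPM in knockouts and 8.31 ± 3.14 CPM in wild types (SD, n = 6 each), with a log2 fold change of -0.79 (SE 0.28, edgeR adjusted p 0.9985). Kcnq5, an M-current gene, averaged 79.5 ± 16.6 CPM in knockouts and 53.3 ± 15.1 CPM in wild types (log2 fold change 0.57, SE 0.23). Kcnip3 averaged 74.9 ± 7.30 CPM in knockouts and 88.1 ± 13.7 CPM in wild types (log2 fold change -0.24, SE 0.10). None of the 3 passed the adjustment. Kcnj8, a subunit of the vascular ATP-sensitive channel, was the only member of the 79 without overlap, at 2.53 to 3.23 CPM in knockouts and 3.62 to 4.29 CPM in wild types (log2 fold change -0.42, SE 0.23, edgeR adjusted p 0.9985), where 0.672% of all genes tested had none. It was named after its values were seen. In females Kcnip4 averaged 56.6 ± 8.86 CPM in knockouts and 45.1 ± 4.70 CPM in wild types (log2 fold change 0.34, SE 0.12, edgeR adjusted p 0.460). Kcnu1, whose product is the sperm channel Slo3, and Kcnq1 had log2 fold changes of 0.61 and -1.11 there.

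In the Dlx bed nucleus of males, Kcnt2 averaged 6.10 ± 1.54 CPM in knockouts and 8.64 ± 2.79 CPM in wild types (SD, n = 6 each), with a log2 fold change of -0.51 (SE 0.19, edgeR adjusted p 0.875). Kcnmb4, the neuronal BK beta subunit, and Kcnk13 had log2 fold changes of 0.36 and 0.22. Of the exonic bases of Kcnmb4, 20.8% lie in the opposite-strand gene Kcnmb4os2 and 10.7% in Kcnmb4os1, so its counts are uncertain. In females Kcng3 was at 0.138 to 0.427 CPM in knockouts (median 0.285 CPM) and 0.167 to 4.59 CPM in wild types (median 0.491 CPM), with overlap. Its log2 fold change was -1.97 (SE 0.70, edgeR adjusted p 0.836). Kcnk6 and Kcne2 had log2 fold changes of -0.29 and -1.89. A single wild-type library held 3.88 CPM of Kcne2, and summed choroid plexus markers reached 36.3 CPM in knockouts and 548 CPM in wild types of this comparison. The part of these markers was not tested. The 6 members whose regions did not overlap in CPM, and Kcnj6, had log2 fold changes over the 8 genotype comparisons of -0.47 to 0.57 for Kcnj6, -0.52 to 0.70 for Kcng2, -0.32 to 0.23 for Kcna5, -1.08 to 0.22 for Kcnj5, -0.23 to 0.63 for Kcnj3, -0.28 to 0.16 for Kcnt1 and -0.17 to 0.09 for Kcnab2, 0 of which were called.

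Whether the effect of the deletion differed by sex, region or line was tested by interaction terms, and 0 members were called in any of the 12 by edgeR or by DESeq2. Between sexes, where the background of calls was 0%, the Nex hippocampus and Nex bed nucleus had 0 members each with an unadjusted p under 0.05 (against 2.72% and 1.14% of all genes), and the Dlx hippocampus had 7 (8.86% of members against 7.22%). The Dlx bed nucleus had 11, or 13.4% of the members against 8.88% of all genes. Kcnmb4 had the smallest unadjusted p there, with a difference of 0.73 between the log2 effects in males and females (SE 0.23, edgeR adjusted p 0.530, a value that Kcnt2 and Kcnh7 share). In the Dlx hippocampus it was that of Kcnu1, with -0.99 (SE 0.31, edgeR adjusted p 0.628, which other members share). Between regions (background 0%, 0.00529%, 0.0107% and 0.0054%), 1, 2, 11 and 3 members had such a p in Nex males, Nex females, Dlx males and Dlx females, where 1.87%, 2.63%, 12.4% and 3.92% of all genes did. In Dlx males the smallest unadjusted p was that of Kcnj8, with a difference of -0.64 between the effects in hippocampus and bed nucleus (SE 0.17, edgeR adjusted p 0.390, which other members share). Between lines (background 0%, 0.00516%, 0.00515% and 0.00515%), 3, 6, 0 and 2 had one in hippocampus of males and females and bed nucleus of males and females, where 3.72%, 9.4%, 4.44% and 2.2% of all genes did. Kcne2 had the largest difference, 4.96 between the effects in the Nex and Dlx hippocampus of females (SE 1.36, edgeR adjusted p 0.487), at median levels of 0.118 to 1.03 CPM in the 4 groups. Summed choroid plexus markers were at 22.7 to 611.8 CPM in Nex knockouts (median 35.5 CPM) and 26.9 to 478.4 CPM in Nex wild types (median 35.1 CPM), and at 11.4 to 103.9 CPM in Dlx knockouts (median 42.8 CPM) and 46 to 1234 CPM in Dlx wild types (median 144 CPM) of these groups, and their part was not tested.

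Sexes were compared among wild types, males over females, where sex and any batch of the sex cannot be told apart. Within a line the library numbers of males and females do not overlap. No member was called by edgeR, where 0.117% of all genes were called in the Nex hippocampus, 0.0535% in the Nex bed nucleus, 0.23% in the Dlx hippocampus and 0.0701% in the Dlx bed nucleus. Unadjusted p-values under 0.05 were held by 10 of 80 members (12.5% against 6.67% of all genes), 3 of 82 (3.66% against 4.14%), 17 of 79 (21.5% against 12.1%) and 9 of 82 (11% against 9.19%) in these 4 tissues. DESeq2 called 0, 0, 2 and 1, and its share over all genes is not given here. In the Nex hippocampus Kcna1 was at 95.1 to 107.6 CPM in males (median 102.8 CPM) and 111.3 to 133.3 CPM in females (median 123.8 CPM), without overlap, where 0.98% of all genes had none. Its log2 fold change was -0.25 (SE 0.07, edgeR adjusted p 0.312). The exact permutation p was 0.00217, unadjusted, as for any groups of this size without overlap. The named members after it were Kcnk4 at -0.67 and Kcnh1 at -0.23 on the log2 scale, and in the Nex bed nucleus Kcnk2 at 0.54, Kcnn1 at -0.26 and Kcnt1 at 0.33. Of the exonic bases of Kcnk2, 12.2% lie in the opposite-strand gene A430027H14Rik.

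In the Dlx hippocampus of wild types, Kcnj2, a Kir2 gene, averaged 23.4 ± 3.90 CPM in males and 14.8 ± 4.25 CPM in females (SD, n = 6 each), with a log2 fold change of 0.67 (SE 0.19, edgeR adjusted p 0.103). Kcng3 was at 0.0437 to 6.86 CPM in males (median 3.18 CPM) and 0 to 1.27 CPM in females (median 0.239 CPM), with a log2 fold change of 3.0 (SE 0.80, edgeR adjusted p 0.0885). The ranges overlapped through the lowest male library. Without the 3 libraries that stood apart, 1 of them a wild-type male of this comparison, 7 members were called here, with Kcnk9, Kcna4, Kcnj2, Kcna3, Kcnu1 and Kcng3 higher in males and Kcna6 lower, at edgeR adjusted p of 0.00474 to 0.0408. The share of all genes called without these 3 libraries is not given here, so the 7 are not set against a background. Kcnk5 had a log2 fold change of -1.30 (SE 0.39). In the Dlx bed nucleus Kcnk6, the TWIK2 gene, averaged 5.23 ± 0.625 CPM in males and 7.12 ± 0.846 CPM in females, with a log2 fold change of -0.46 (SE 0.11, edgeR adjusted p 0.169). Kcnab1 and Kcns2 had log2 fold changes of 0.68 and 0.50 there. Female wild-type library 1 was the highest of its group for both, and without it 4 members were called, Kcnab1, Kcnd2, Kcnc4 and Kcns2, with a log2 fold change of 1.04 for Kcnab1. The share of all genes called without it is not given here. Striatal marker sums were at 950.4 to 3054 CPM in these males (median 1466 CPM) and 603.5 to 2480 CPM in the females (median 695.8 CPM), where library 1 held the 2480 CPM and the other 5 were at 603.5 to 841.7 CPM. The part of these markers in the sex comparison was not tested.

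Lines were compared among wild types, Nex over Dlx, where line and any batch of the line cannot be told apart. These comparisons use the same wild-type libraries as those of the sexes. No member was called by edgeR, against 0% of all genes in hippocampus of either sex, 0.597% in bed nucleus of males and 0.695% in bed nucleus of females. Unadjusted p-values under 0.05 were held by 6 of 81 members (7.41% against 5.6%) and 9 of 81 (11.1% against 8.93%) in hippocampus of males and females, and by 13 of 83 (15.7% against 13.8%) and 9 of 83 (10.8% against 10.8%) in bed nucleus of males and females. DESeq2 called 0, 1, 4 and 2 members in these comparisons, and edgeR without the 3 libraries that stood apart called 0, 3, 2 and 1. Shares over all genes are not given here for these settings. Kcna3 was at 9.26 to 15.3 CPM in the bed nucleus of Nex males (median 11.9 CPM), against 4.61 to 7.88 CPM in Dlx males (median 6.27 CPM), without overlap, where 0.669% of all genes had none. Its log2 fold change was 0.96 (SE 0.26, edgeR adjusted p 0.0599). The exact permutation p was 0.00217, unadjusted, as for any groups of this size without overlap. Kcna2 averaged 258.6 ± 23.1 CPM in the hippocampus of Nex females and 195.9 ± 10.5 CPM in that of Dlx females (SD, n = 6 each), without overlap, where 2.17% of all genes had none, with a log2 fold change of 0.42. In the bed nucleus of females Kcnh5 had a log2 fold change of 1.14 (SE 0.32, edgeR adjusted p 0.0755), and Kcnq3 averaged 212 ± 33.2 CPM in Nex and 138 ± 44.1 CPM in Dlx (log2 fold change 0.62, SE 0.18, edgeR adjusted p 0.0894). The other named members were Kcnk4, Kcnj5 and Kcnf1 in the hippocampus of males, with log2 fold changes of -0.67, 1.25 and -0.38, Kcnc4 in that of females with 0.47, and Kcnk5 in the bed nucleus of males with -0.88.

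Kcng3, a silent subunit gene, recurred in 3 of the 4 line comparisons. In the hippocampus of wild-type females it was at 1.61 to 4.18 CPM in Nex (median 2.27 CPM) and 0 to 1.27 CPM in Dlx (median 0.239 CPM), without overlap, with a log2 fold change of 2.70 (SE 0.66, edgeR adjusted p 0.151). In the bed nucleus of wild-type males it was at 0.774 to 9.93 CPM in Nex (median 3.61 CPM) and 0.129 to 1.17 CPM in Dlx (median 0.728 CPM), with a log2 fold change of 2.60 (SE 0.67, edgeR adjusted p 0.0511). In the bed nucleus of wild-type females it was at 1.2 to 7.09 CPM in Nex (median 5.66 CPM) and 0.167 to 4.59 CPM in Dlx (median 0.491 CPM), with a log2 fold change of 2.13 (SE 0.62, edgeR adjusted p 0.0987). The medians of the knockout groups were 2.89 CPM in the Nex hippocampus of females, 2.89 CPM and 4.24 CPM in the Nex bed nucleus of males and females, 0.284 CPM in the Dlx hippocampus of females, and 0.473 CPM and 0.285 CPM in the Dlx bed nucleus of males and females. In the hippocampus of males the lines were close, with medians of 3.06 CPM in Nex knockouts, 2.65 CPM in Nex wild types, 2.79 CPM in Dlx knockouts and 3.18 CPM in Dlx wild types. Striatal marker sums in the bed nucleus of wild-type males were at 291.5 to 3821 CPM in Nex (median 2318 CPM) and 950.4 to 3054 CPM in Dlx (median 1466 CPM). In that of wild-type females they were at 458.6 to 3130 CPM in Nex (median 1645 CPM) and 603.5 to 2480 CPM in Dlx (median 695.8 CPM). The medians of the knockout groups were 2826 CPM in Nex males, 1775 CPM in Nex females, 1786 CPM in Dlx males and 591.3 CPM in Dlx females, and the part of these markers in the levels of Kcng3 was not tested.

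The members that passed the filter on low counts in none of the 36 comparisons were Kcna10, Kcna7, Kcne1, Kcne3, Kcnj1, Kcnj15, Kcnk16, Kcnk18, Kcnmb3 and Kcnv2. Kcnk15, Kcnk7, Kcnn4 and Kcne2 passed it in 8, 8, 19 and 32 comparisons. The 14 members tested in all 4 wild-type region sets and called in none were Kcna2, Kcna4, Kcnc2, Kcne4, Kcnh5, Kcnh8, Kcnj4, Kcnj8, Kcnk2, Kcnmb1, Kcnmb4, Kcnq1, Kcnrg and Kcnu1. A p that misses the threshold does not show equal levels.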

How the data were processed

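Counts per gene for 95 libraries were used as the authors deposited them, as whole numbers that were not normalized. The submitters' processing notes name HISAT2 2.0.5, featureCounts 1.5.0-p3 and DESeq2, and the genome build and the strand setting are not given in the sources used here. The 95 FPKM columns and 40 columns of the authors' own comparisons were not used. In R 4.3.3, edgeR 4.0.16 (filterByExpr, TMM scaling, quasi-likelihood test, 1 mean per group) was run on all genes with Benjamini-Hochberg adjustment and a threshold of 0.05. Fits held the 4 groups of a line and region (genotype, sex), the 4 groups of a line and sex (region) or the 8 groups of a region (line), giving 36 comparisons, and standard errors are the fold change over the root of F. Levels are CPM after TMM scaling of all libraries, and TPM from the deposited gene length. Exact two-sided permutation tests used log2(CPM + 0.5). Scripts were tested on simulated data with 200 changed genes. No 2 libraries of a group agreed within counting noise. Named were, where no member was called, the 3 smallest p-values of a comparison, in the region comparison up to 4 members per family called in all 4 wild-type sets, and the 10 highest members of each region. Kcnj16 and others said to be so were named after their values were seen. Members and lists were chosen with earlier results of these data known. Alternatives were DESeq2 1.42.0, median-of-ratios scaling, no filter, only the 2 groups compared, a replicate block, each library left out and, chosen after seeing the data, 3 libraries left out and other scalings of the levels in the count of regions without overlap. Promoter windows came from RefSeq on GRCm38.p6, and coordinates of 89 of the 93 members equalled those of a GRCm38 annotation. Values of some members are not reported here, although counts over the members include them.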

Additional observations from a re-analysis of the deposited data

Results flagged for a closer look

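In 91 tests of a named member in a group of 5 or 6 libraries, 12 had a library far from the others by Dixon's criterion, which chance alone meets in about 1 group in 20. Wild-type library 1 of the Dlx bed nucleus of females was the highest for 4 members. Kcnab1 was at 209 CPM in it, against 69.5 to 80.5 CPM in the other 5 libraries, Kcns2 at 53 CPM against 23.2 to 27.5 CPM, Kcnh5 at 6.07 CPM against 1.88 to 2.45 CPM, and Kcng3 at 4.59 CPM against 0.167 to 0.705 CPM. Its striatal marker sum was 2480 CPM, against 603.5 to 841.7 CPM in the other 5, and the part of these markers was not tested. In the same group Kcne2 was at 3.88 CPM in library 11 against 0.083 to 0.499 CPM, and Kcnk6 at 5.51 CPM in library 14 against 6.93 to 7.76 CPM.

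Kcnu1 was at 7.92 CPM in knockout library 8 of the Dlx hippocampus of females, against 2.83 to 3.95 CPM in the others, and Kcnip3 at 115 CPM in wild-type library Dl_D_M_W_641 of the Dlx hippocampus of males, against 77.7 to 88.1 CPM. Both libraries are among the 3 that stood apart. Kcnn1 was at 14.4 CPM in knockout library N_B_F_K_496 of the Nex bed nucleus of females, against 11.5 to 12.4 CPM, and at 18.1 CPM in wild-type library N_B_F_W_484 of the same tissue and sex, against 12.8 to 14 CPM. Kcnab1 was at 235 CPM in wild-type library Dl_B_M_W_637 of the Dlx bed nucleus of males, against 134 to 167 CPM. Kcng3 was at 1.27 CPM in wild-type library 14 of the Dlx hippocampus of females, against 0 to 0.423 CPM.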

How the results depend on the processing

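No result changed direction under any setting run. The number of members called was 0 in all 8 genotype comparisons and all 12 interactions under every setting. Among wild types, where 0 members were called in the sex and line comparisons, other settings gave calls, of Dlx hippocampus males over females 2 with DESeq2 (Kcng3 and Kcnj2), 1 with no filter on low counts (Kcne2) and 7 without the 3 libraries that stood apart. Dlx bed nucleus males over females had 1 with DESeq2 (Kcnk6). Nex over Dlx had, in hippocampus of females, 1 with DESeq2 (Kcng3), 4 with only the 2 groups compared (Kcna2, Kcna3, Kcng3 and Kcnh5) and 3 without the libraries that stood apart. In bed nucleus of males it had 4 with DESeq2 (Kcna3, Kcng3, Kcnh5 and Kcnk5), 1 with median-of-ratios scaling (Kcng3), 1 with only the 2 groups (Kcna3) and 2 without the libraries that stood apart, and in bed nucleus of females 2 with DESeq2 (Kcnh5 and Kcnq3) and 1 without those libraries (Kcnq3). The cause was not tested. Shares of all genes called under the alternative settings, single libraries left out among them, are not given here. The counts of members called under them are thus not set against a background.

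With each library left out in turn, calls were 0 to 6 for line in bed nucleus of females (above 0 without N_B_F_W_510, Dl_B_M_K_639 or Dl_B_F_W_1), 0 to 4 for line in bed nucleus of males (above 0 without any of 18 of the 48 libraries), 0 to 1 for line in hippocampus of females (without Dl_D_F_K_8), 0 to 4 for sex in the Dlx bed nucleus (without Dl_B_F_W_1) and 0 to 5 for sex in the Dlx hippocampus (without Dl_D_F_W_3 or Dl_D_F_K_8). The region counts of wild types were 37 to 43 in Nex males, 55 to 60 in Nex females, 57 to 60 in Dlx males and 41 to 54 in Dlx females. In all 4 sets 14 to 18 members were higher and 13 to 16 lower, newly called members included. Region calls of single genes were followed for Kcnj16 and for up to 4 members per family called in all 4 wild-type sets, so not for Kcnj9. Among those followed whose values are given, region calls of wild types were lost without single libraries for Kcnj16 in Nex males (-0.51 to -0.35, any of 13 libraries, and -0.51 both with no filter and with only the 2 groups compared), Kcnk5 (-1.03 to -0.90 in Dlx females without Dl_D_F_W_10, Dl_D_F_W_11, Dl_B_F_W_3 or Dl_B_F_W_10, -1.01 to -0.93 in Nex males without N_D_M_W_525, N_D_M_W_553, N_B_M_W_553 or N_B_M_W_585) and Kcnn1 in Dlx females (0.35 to 0.42, 9 libraries, and 0.41 with no filter).

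Whether the replicate numbers pair libraries of the 2 regions is not stated, and correlations did not settle it. Of 42 pairs 12 had a correlation over 0.1 (median 0.0483, range -0.134 to 0.254). In 13 of the 42 the bed nucleus library of the same number was the best match among the 6 of its group. With the replicate block the region counts of wild types were 41 in Nex males, 55 in Nex females, 54 in Dlx males and 37 in Dlx females, and those of knockouts 35, 57, 52 and 38, with 15 members higher and 15 lower in all 4 wild-type sets. Among the genes followed singly whose values are given, the block ended the calls of Kcnma1 in Nex males (0.45) and Dlx females (0.63), Kcnn1 in Dlx males (0.28) and Dlx females (0.34), Kcnn2 (0.94) and Kcnh4 (-1.54) in Dlx females and Kcnk5 in Nex males (-0.93). Kcnj9 was not followed here either. No paired analysis was possible for the genotype, sex and line comparisons because their groups share fewer than 2 numbers.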
